A study of Mus musculus with 3 samples.

Results

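Hi-C domains were described at the mouse clusters HoxA, HoxB, HoxC and HoxD, and at the gene that closes each cluster at its 13 end: Hoxa13, Hoxb13, Hoxc13 and Hoxd13. Every domain of the deposited table that overlaps a cluster was taken, plus 1 domain on each side. The domains were picked by position only, but the clusters were chosen with earlier results of these data known. This gave 14 of the 4124 domains in the table: 4 at HoxA, 3 at HoxB, 3 at HoxC and 4 at HoxD. The data came from wild-type forelimb and hindlimb buds at embryonic stage E11.5, in 3 Hi-C libraries of 1 group. The protocol text describes technical triplicates of 1 pool of 8 embryos, the design text counts 10 embryos, and no strain or transgene is given. A cell type label on each library names G4 embryonic stem cells where the source label names embryonic limb bud, and the source label was followed. Hi-C measures no gene expression, so the labelled tissue was not checked against marker genes.

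Hox genes encode homeodomain transcription factors that give cells their position along the body axes. They lie side by side, and the order of the genes in a cluster follows the order in which they are used from head to tail. Genes of the 13 group act last and most distally: Hoxa13 and Hoxd13 shape the digits, Hoxb13 acts in the tail and the urogenital tract, and Hoxc13 in hair and nails. In limb buds the HoxA and HoxD clusters are known to draw on enhancers in flanking regions, and HoxD is a textbook case of a cluster lying between 2 such landscapes. A domain, as TopDom calls it, is a stretch of chromatin whose contacts stay mostly inside it, and its edge is the boundary. An architectural stripe is a line of raised contact that runs from 1 edge of a domain across its interior. The table gives each domain a class of 0 or 1 from a random forest, and every domain of class 1 has a probability of 0.5 or more. No column of the table names stripes, so that class 1 stands for stripe-bearing domains is an assumption taken from the subject of the study, and the domains are called by their class here.

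In RefSeq's gene order (GRCm38.p6, used only for order and neighbours) the clusters hold 39 Hox genes: 11 in HoxA, 10 in HoxB, 9 in HoxC and 9 in HoxD. Hoxa13 is the member of highest coordinate in its cluster, whereas Hoxb13, Hoxc13 and Hoxd13 have the lowest coordinate in theirs. The 13 end of each interval was set from this order. The genes bordering the clusters are partly related to each other. Evx1 lies next to Hoxa13 and Evx2 next to Hoxd13, and both encode homeodomain proteins of the even-skipped family. Skap2 borders HoxA on the side away from Hoxa13 and Skap1 lies past Hoxb1, both coding for adaptor proteins. Hoxb13 is followed by Ttll6, which encodes an enzyme acting on tubulin, and Hoxc13 by Calcoco1. On the opposite sides lie Smug1, which encodes a DNA repair glycosylase, past Hoxc4, and Mtx2, which encodes a mitochondrial protein, past Hoxd1.

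Of the 13 genes, RefSeq's table of upstream stretches has entries for Hoxa13 and Hoxd13, and none for Hoxb13 and Hoxc13. To show the sequence at the first 2, whose clusters held an edge near their 13 end, the 250 bases upstream of each gene start are given from RefSeq (GRCm38.p6), 5′ to 3′ on the strand of the gene. Capitals mark GATC, the site cut by DpnII, which was the enzyme of this Hi-C protocol and sets where contacts can be read.

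Hoxa13: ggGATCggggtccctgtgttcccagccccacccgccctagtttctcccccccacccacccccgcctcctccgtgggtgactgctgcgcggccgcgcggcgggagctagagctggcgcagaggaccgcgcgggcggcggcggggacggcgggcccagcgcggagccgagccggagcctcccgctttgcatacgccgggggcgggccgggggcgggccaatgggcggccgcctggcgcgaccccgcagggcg

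Hoxd13: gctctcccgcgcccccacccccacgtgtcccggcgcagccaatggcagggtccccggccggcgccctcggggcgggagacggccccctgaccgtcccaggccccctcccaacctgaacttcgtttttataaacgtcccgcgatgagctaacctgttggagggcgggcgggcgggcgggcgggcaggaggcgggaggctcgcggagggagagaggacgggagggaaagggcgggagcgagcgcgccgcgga

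Both stretches are rich in G and C. The Hoxa13 stretch is 80.0% G and C with 35 CpG dinucleotides, at percentile 98.8 for GC content among the 32851 upstream stretches of RefSeq's table. The Hoxd13 stretch is 74.4% G and C with 31 CpG dinucleotides, at percentile 95.6 for GC content. The median over all stretches is 52.4% with 6 CpG dinucleotides. The Hoxa13 stretch has 1 GATC site, at its far end from the gene, and the Hoxd13 stretch has 0; 41.9% of all stretches hold at least 1. The table has entries for 22 of the 39 Hox genes, 24 stretches in all, with a median of 58.6% G and C, and 13 of these 24 hold a GATC site. The letters CCANNAGGG, part of the motif bound by the boundary protein CTCF, were searched on both strands. They occur in neither 13 gene's stretch, in 1 of the 24 Hox stretches (Hoxa10) and in 5.07% of all. Absence from these windows says nothing about CTCF binding in the clusters.

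Positions in the Hi-C data are those of the mm9 table, with starts counted from 1. TopDom edges fall on multiples of 25 kb, the cluster intervals are rounded to 10 kb, and a second pair of edges per domain, called tuned in the table, falls on multiples of 10 kb. The table gives 1 value per domain and none per library, how the libraries entered it is not stated, and the sequencing depth is unknown. No value therefore has an error between libraries, and no test was made.

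A domain edge lay inside the HoxA and HoxD intervals near their 13 ends, HoxB was entered by a gap between domains, and HoxC lay whole inside 1 domain. Thus 3 of the 4 cluster intervals held a domain edge. At HoxA and HoxD a shift of 25 kb toward the 13 end would bring that edge to or past the end of the interval. For background, an edge falls inside 21.6% of all windows of 110 kb (the length of the HoxA and HoxD intervals), 34.5% of windows of 180 kb (HoxB) and 23.5% of windows of 120 kb (HoxC). The edge inside HoxA was at 52.2 Mb of chromosome 6, 10 kb from the 13 end of the interval (52.10 to 52.21 Mb) and 100 kb from its other end. With an overlap of at least 25 kb required, HoxA overlapped 1 domain in place of 2. The edge inside HoxD was at 74.525 Mb of chromosome 2, 25 kb from the 13 end of the interval (74.50 to 74.61 Mb) and 85 kb from the Hoxd1 end. Since HoxA and HoxD run in opposite directions along their chromosomes, these edges lie at mirrored places and both near the 13 gene. A distance of 10 or 25 kb is no larger than the grid of 25 kb, and the interval ends are themselves rounded to 10 kb, so on which side of its boundary Hoxa13 or Hoxd13 itself lies cannot be read from these data.

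**Figure D1:**
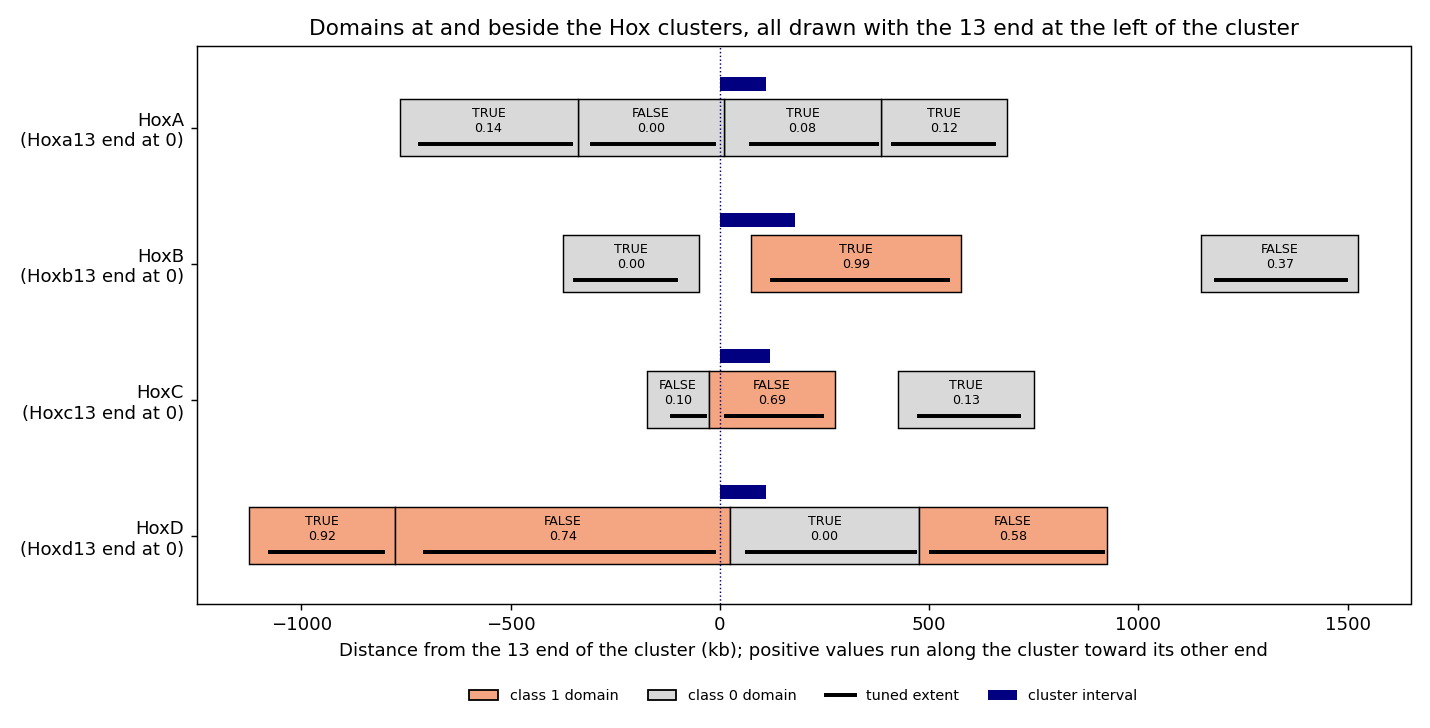
Domains at and beside each Hox cluster, as distance in kb from the 13 end, with every cluster drawn so that positive values run from the 13 gene toward the other end of the cluster. Boxes are domains (orange class 1, grey class 0) with the direction and probability of the table, black lines are tuned extents and blue bars are cluster intervals; HoxA and HoxD have 4 touching domains each, HoxB has gaps of 125 and 575 kb, and HoxC lies within 1 domain of 300 kb.

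By TopDom edges the 13 end was nearer to an edge than the other end in 4 of 4 clusters, and by tuned edges in 3 of 4, with HoxB turned. The share of other intervals where a given end is the nearer was not computed, so these counts have no background. The plan named only the distance from the 13 end. Setting it against the other end was not planned by TopDom edges, and by tuned edges it was chosen after seeing the data. The nearest TopDom edge lay 10 kb from the Hoxa13 end, 50 kb from the Hoxb13 end, 25 kb from the Hoxc13 end and 25 kb from the Hoxd13 end. From the other ends it lay 100 kb at HoxA, 105 kb at Hoxb1, 145 kb at Hoxc4 and 85 kb at Hoxd1. With tuned edges the Hoxb13 end lay 100 kb and the Hoxb1 end 60 kb from an edge. The other 13 ends then lay 10 kb from an edge each, against 40 kb at the other end of HoxA, 110 kb at Hoxc4 and 50 kb at Hoxd1. Of all positions on a 10 kb grid, 48.55% lay as near to a tuned edge as the Hoxb13 end. The share was 10% for each of the other 13 ends. By TopDom edges, in HoxA, HoxC and HoxD the same edge was nearest to both ends, so the 2 distances of such a cluster are not separate observations. Of the 13 ends, 3 of 4 were within 25 kb of an edge, against 11.6% of all positions on a grid of 10 kb along the 19 chromosomes. The Hoxc13 and Hoxd13 ends lay exactly at that cutoff, and the interval ends are rounded to 10 kb. Within 20 kb lay only the Hoxa13 end, against 9.5% of positions. At the Hoxb13 end the distance of 50 kb was matched or undercut at 21.6% of positions. The other ends were less close, with 34.6% (Hoxd1) to 53.2% (Hoxc4) of all positions at least as near to an edge.

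**Figure D2:**
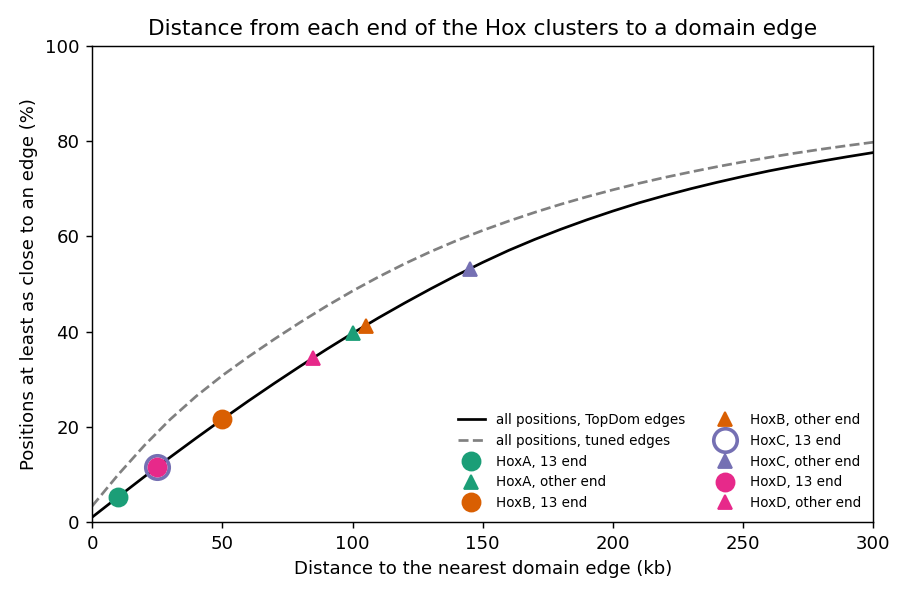
Share of positions on a 10 kb grid (y axis, percent) that lie at least as near to a domain edge as the distance on the x axis (kb). TopDom edges are solid and tuned edges dashed, and the grid runs between the first and last domain of each of the 19 chromosomes. Circles are the 13 ends and triangles the other ends of the clusters; all are set by TopDom edges, and the circles lie at 10 to 50 kb and the triangles at 85 to 145 kb.

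At HoxA the boundary separated 2 domains of similar length, and all 4 domains were class 0. Of the interval, 100 kb (90.9%) lay in the domain from 51825001 to 52200000, on the side of Skap2, and 10 kb (9.09%) in the domain from 52200001 to 52550000, on the side of Hoxa13 and Evx1. The first of these was 375 kb long with direction TRUE, a probability of 0.08 and an imbalance score of 0.353. The domain on the Hoxa13 side was 350 kb long with direction FALSE, a probability of 0.00 and an imbalance score of 0.206. Imbalance is the authors' score for how one-sided a domain is, by its name. The labels state neither how it was computed nor which side a direction names. Over all domains the median imbalance was 0.317 and the quartiles were 0.145 and 0.588, so both HoxA domains were within the middle range. The flank on the Skap2 side, from 51525001 to 51825000, had an imbalance of 0.0611, at percentile 10.4, and a probability of 0.12. The flank on the Evx1 side, from 52550001 to 52975000, had an imbalance of 0.180 and a probability of 0.14.

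At HoxD the boundary separated domains that differed in length and in class. On the side of Hoxd13 and Evx2 lay the domain from 73725001 to 74525000, which was 800 kb long (percentile 86.2) and in class 1, with direction FALSE, a probability of 0.74 and an imbalance of 0.711. It held 25 kb (22.7%) of the interval. The other 85 kb (77.3%) lay in the domain from 74525001 to 74975000 on the side of Hoxd1 and Mtx2, which was 450 kb long and in class 0, with direction TRUE, a probability of 0.00 and an imbalance of 0.121. The Hoxd13 side also had the highest imbalance difference score of the 14 domains, 0.603 (percentile 97.7), against 0.0989 (percentile 37.9) on the Hoxd1 side. The cosine scores were nearly equal, at 0.863 and 0.858. Both flanks were class 1. The flank from 73375001 to 73725000 had a probability of 0.92 and an imbalance of 0.604, and the flank from 74975001 to 75425000 had a probability of 0.58, near the class threshold, and an imbalance of 0.494.

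In imbalance, probability and length the contrast across the boundary was larger at HoxD than at HoxA. The imbalance of the 2 domains differed by 0.591 at HoxD and by 0.147 at HoxA, against a median difference of 0.264 over the 3084 pairs of domains in the table that share a boundary. These differences were at percentiles 80.8 and 32.3 of those pairs. The probabilities differed by 0.74 at HoxD (percentile 82.9) and by 0.08 at HoxA (percentile 20.8), with a median of 0.29 over all pairs. The lengths differed by 350 kb at HoxD and by 25 kb at HoxA, with a median of 200 kb. The cosine score went the opposite way, with a difference of 0.00499 at HoxD (percentile 2.06) and 0.118 at HoxA (percentile 40.5). At both boundaries the domain on the side of the 13 gene had direction FALSE and the domain on the other side TRUE. By coordinate this is TRUE then FALSE at HoxA and FALSE then TRUE at HoxD, orders that made up 25.7% and 25.9% of all pairs.

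With tuned edges the boundary became a stretch between domains, and it covered the 13 ends of HoxA and HoxD. The tuned domains around the HoxA boundary ended at 52.14 Mb and began at 52.22 Mb, 80 kb apart. Those around the HoxD boundary ended at 74.49 Mb and began at 74.56 Mb, 70 kb apart. Over all shared boundaries this distance had a median of 60 kb and quartiles of 40 and 80 kb, so both boundaries lay between the median and the upper quartile, which HoxA reached. Of the HoxA interval 70 kb (63.6%) and of the HoxD interval 60 kb (54.5%) then lay outside any tuned domain, on the side of the 13 gene in both. The tuned extent held the 40 kb of HoxA farthest from Hoxa13 and the 50 kb of HoxD nearest to Hoxd1. At HoxA the shift came mostly from the domain on the Skap2 side, whose end moved inward by 60 kb (percentile 91.7 of all domains), while the start beyond it moved by 20 kb. At HoxD the 2 edges each moved inward by 35 kb.

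HoxB differed from the others in lying partly in a gap, a stretch that TopDom gave to no domain. The gap ran from 96.0 to 96.125 Mb of chromosome 11, was 125 kb long, as long as the median of all 1021 gaps, and took up 75 kb (41.7%) of the interval (96.05 to 96.23 Mb), including its Hoxb13 end. The Hoxb1 end and the other 105 kb (58.3%) lay in the domain from 96125001 to 96625000. This domain was 500 kb long and had the highest probability of the 14, 0.99, with direction TRUE, an imbalance of 0.610 (percentile 76.6) and an imbalance difference score of 0.420 (percentile 90.5). Below the gap, on the Ttll6 side of Hoxb13, the flank from 95675001 to 96000000 had a probability of 0.00 and an imbalance of 0.342. Above the cluster domain a gap of 575 kb (percentile 95.5 of all gaps) separated it from the flank that ran from 97200001 to 97575000, with a probability of 0.37 and an imbalance of 0.452. With tuned edges the domain began at 96170001 and held 60 kb (33.3%) of the interval.

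HoxC was the only cluster with no edge inside its interval. The interval (102.75 to 102.87 Mb of chromosome 15) lay wholly in the domain from 102725001 to 103025000, which was 300 kb long and in class 1, with direction FALSE, a probability of 0.69, an imbalance of 0.460 and an imbalance difference score of 0.420. The Hoxc13 end was 25 kb from the lower edge of this domain, so the cluster began close to that boundary too. Across it, on the Calcoco1 side, lay the shortest of the 14 domains, 150 kb long (percentile 3.64), from 102575001 to 102725000, with a probability of 0.10 and an imbalance of 0.0794 (percentile 13.5). Below this flank a gap of 750 kb followed (percentile 97.4 of all gaps). Past the Hoxc4 side a gap of 150 kb led to the flank from 103175001 to 103500000, the last domain of the chromosome in the table, with a probability of 0.13 and an imbalance of 0.269. The tuned cluster domain began at 102.76 Mb, which put 110 kb (91.7%) of HoxC inside it and its 10 kb at the Hoxc13 end outside.

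The share of class 1 domains around the Hox clusters was close to that of the whole table. Of the 14 domains, 5 were class 1, or 35.7%, against 35.1% of all domains. They were unevenly spread: 0 of 4 at HoxA, 1 of 3 at HoxB, 1 of 3 at HoxC and 3 of 4 at HoxD. Of the 6 domains that overlap a cluster, 3 were class 1, namely the HoxB and HoxC domains and the domain on the Hoxd13 side of HoxD. A probability of 0.01 or less was found in 3 of the 14 domains, against 9.73% of all. These were the cluster domain on the Hoxa13 side of HoxA, the HoxB flank next to Hoxb13 and the cluster domain on the Hoxd1 side. Direction was TRUE in 8 and FALSE in 6 of the 14, where 50.8% of all domains were FALSE.

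**Figure D3:**
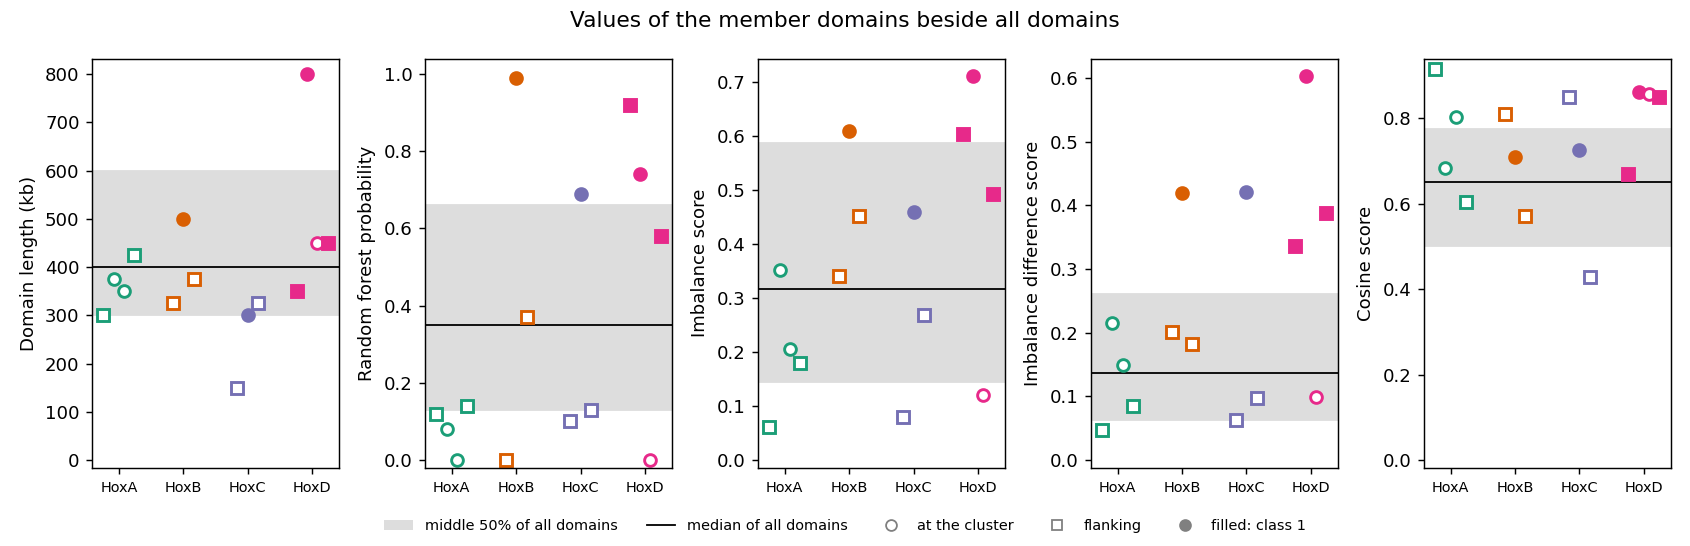
Length (kb), probability, imbalance, imbalance difference and cosine scores of the 14 domains, by cluster; circles overlap the cluster, squares flank it, filled symbols are class 1, the line is the median and the band the range between the quartiles of all domains. The HoxA domains lie at a probability of 0.14 or below, and 3 of the 4 HoxD domains lie at 0.58 or above.

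The median probability of the 14 domains was lower than that of the whole table, and their median cosine and imbalance difference scores were higher. The probability had a median of 0.135, at the lower quartile of all domains (0.13), where all domains had a median of 0.35. The upper quartiles were alike, at 0.6625 in the 14 and 0.66 over all domains, so the values were not lower throughout. Grouped by cluster the median probability was 0.1 at HoxA, 0.37 at HoxB, 0.13 at HoxC and 0.66 at HoxD. The median of the 14 percentiles was 29.1 for probability, 73.2 for cosine, 62.9 for imbalance difference and 53.8 for imbalance. The cosine score was above the median of all domains (0.652) in 11 of the 14, against 50.0% of all by construction, and their median was 0.764. The highest was 0.916 in the lower flank of HoxA (percentile 98.2), followed by 0.863, 0.858 and 0.850 in 3 HoxD domains and 0.850 in the lower flank of HoxC. The lowest was 0.430 in the higher flank of HoxC. The median imbalance score was 0.347 (lowest 0.0611, highest 0.711), where all domains had 0.317. Grouped by cluster its median was 0.193 at HoxA, 0.452 at HoxB, 0.269 at HoxC and 0.549 at HoxD. The imbalance difference score had a median of 0.192, against 0.137. It was between 0.337 and 0.603 in the 5 class 1 domains and at most 0.215 in the other 9, where class 1 of the whole table had a median of 0.308 and class 0 one of 0.0900. The class may be built from these scores, so that contrast is a description.

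The Hox domains were of ordinary or slightly short length, and gaps lay beside HoxB and HoxC more than beside HoxA and HoxD. The median length was 362.5 kb, against 400 kb over all domains, and the median of the 14 length percentiles was 41.95. A gap bordered 8 of the 14 domains, against 41.9% of all domains. All 3 domains of HoxB and all 3 of HoxC bordered a gap, but at HoxA and HoxD only 1 outer flank each did. Tuning moved the start inward by 33.2 kb on average and the end by 27.9 kb, against 29.3 and 30.0 kb over all domains. The start of the domain on the Hoxd13 side of HoxD moved by 65 kb, which put it at percentile 98.1.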

How the data were processed

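Hi-C libraries were cut with DpnII, per the labels' protocols. Juicer, BWA and build mm9 stand in the submitters' processing notes without versions. The file name credits TopDom (quantile threshold 0.98) for domains and a random forest (0.5) for the class. The deposited probability, a fraction, is absent for 2 domains. Imbalance, imbalance difference and cosine are scores of the authors, and 2 domains have an infinite imbalance. Whether libraries were pooled before calling is not stated.

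Domains sharing at least 1 base with a cluster interval (mm9) were taken with 1 domain on each side. A percentile is the mid-rank among all domains, pairs, gaps or upstream stretches. Background for edges covered every window or position on a 10 kb grid between the first and last domain of each chromosome. The calculations were checked on a made-up table with known answers (Python 3.11.15, pandas 2.3.3, numpy 2.4.6). RefSeq tables of another build gave gene order and upstream sequence only, so single genes were not placed in domains. Genes named were the Hox genes and the nearest coding gene on each side. Clusters and lists were chosen with earlier results of these data known. Alternatives were other intervals, overlaps, edges, thresholds and sets of comparison.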

Additional observations from a re-analysis of the deposited data

How the results depend on the processing

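No paired analysis was possible because all libraries form 1 group without separate values, which also kept any library from being left out. Of 51 alternatives, 21 were labelled as keeping the value and 30 as moving it. Counts and class 1 shares passed as kept within 1.5 times, and other values only if equal to 3 digits. So small shifts counted as moved. Class 1 shares of 50% (only domains at the clusters) and 28.6% (probability of at least 0.6) passed as kept against 35.7%. So did 3 clusters against 4 with the 13 end nearer to an edge. HoxA overlapped 1 domain in place of 2 with tuned edges or an overlap of at least 25 kb, HoxD overlapped 1 with tuned edges, and HoxC overlapped 2 with intervals widened by 50 kb. HoxC then held 1 edge, as it did with tuned edges, so its lack of an inner edge rests on 25 kb or less. With tuned edges the nearest edge was 100 kb from the Hoxb13 end and 10 kb from the Hoxc13 and Hoxd13 ends. From the middle of the interval it was 45 kb in HoxA, 15 kb in HoxB, 85 kb in HoxC and 30 kb in HoxD, so HoxB was nearer to an edge at its middle than at its 13 end. At a probability of at least 0.9 the class 1 share was 14.3%, against 16.2% of all domains. The median percentile of the 14 domains was 53.8 for imbalance (51.3 within chromosome, 50.4 among similar lengths, 39.0 within class), 62.9 for imbalance difference (57.7, 62.3 and 70.3), 73.2 for cosine (67.3, 72.0 and 76.9), 29.1 for probability (31.9, 29.9 and 32.6, added after seeing the data) and 41.9 for length (44.4 within chromosome, 42.3 within class). Medians in place of means gave a tuning shift of 32.5 kb at starts and 25 kb at ends. The cause of these changes was not tested. Unknown depth limits every value.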

Other observations

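The HoxA domains lay in a run of 8 consecutive class 0 domains from 50900001 to 54200000, which spans 3300 kb and was picked out after its values were seen. Of the 930 runs of class 0 domains in the table, 50 (5.38%) had 8 or more, and these held 17.7% of all class 0 domains. Leaving out the domains that overlap a cluster, the nearest class 1 domains lay 1200 kb below the HoxA interval and 2115 kb above it. Around HoxD they lay 775 kb below and 365 kb above the interval, around HoxB 475 kb below and 1520 kb above, and below HoxC 1600 kb away, with only 1 domain, of class 0, above HoxC on the chromosome. Domains of class 1 that overlap a cluster, and so are not in these distances, lie at HoxB, at HoxC and on the Hoxd13 side of HoxD, and none at HoxA. Among the 5 domains on each side of the overlapping ones, 2 of 10 were class 1 at HoxA, 5 of 10 at HoxB and 3 of 10 at HoxD, and at HoxC 1 of the 6 that the chromosome has there, against 35.1% of all domains.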
